A study of Mus musculus with 6 samples.

Results

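The genes described here are 38 mouse genes of glycolysis and of the response to low oxygen, out of 36528 gene IDs measured. They were chosen by function, with earlier results of these data known, and were found by Entrez ID. They are glucose and lactate transporters, lactate dehydrogenases and the enzymes from hexokinase to pyruvate kinase. The rest are the PFKFB and PDK regulators and genes of the hypoxia-inducible factor (HIF) pathway. Levels were read by RNA sequencing in 6 libraries of HOXB-8 cells, bone marrow cells of the myeloid lineage that the extraction notes also call iMACs. The 3 libraries labelled Parental are Irf2 wild type and carry a control guide RNA named Luc. The 3 labelled IRF2_KO come from lines that received a guide RNA against Irf2, the gene of an interferon regulatory factor. All 6 share the HOXB-8 background, no treatment or oxygen level is given for either group, and nothing says how many lines or clones stand behind a group or whether its libraries are separate cultures. The p-values below therefore set the groups against the spread among libraries alone, and that spread may be purely technical.

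Glycolysis converts glucose to pyruvate in the cytosol. Glucose enters through facilitative transporters, hexokinases trap it as a phosphate, phosphofructokinase commits it to breakdown under the control of the PFKFB enzymes, and lactate dehydrogenase turns pyruvate into lactate, which leaves through monocarboxylate transporters. PDK kinases switch off pyruvate dehydrogenase and so hold pyruvate back from mitochondria. In low oxygen HIF1A escapes the prolyl hydroxylases EGLN1 and EGLN3, which otherwise mark it for destruction, and it then binds a short DNA core, ACGTG or GCGTG, near many glycolytic genes. Myeloid cells are known to rely heavily on glycolysis.

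Most of these genes were moderately higher in IRF2_KO. Of the 38, 34 passed the filter on low counts, and among them 24 rose and 3 fell, while 7 were not called (edgeR quasi-likelihood test, adjusted p under 0.05). Over all 13353 genes tested, 23.6% were called higher, 23.6% lower and 47.2% in either direction, against 70.6% and 8.82% of the 34. Because earlier results of these data were known when the 38 genes were chosen, these are not shares of an independent set. The median log2 fold change was 0.31 over the 34 genes and -0.01 over all genes tested, and the median absolute log2 fold change was 0.33 and 0.18. The changes were small to moderate: 5 of the 34 passed 1.5-fold and 2 passed 2-fold in either direction. The genes with the largest rises above 40 CPM in Parental were Bnip3, Pgk1, P4ha1, Gpi1 and Egln3. Those that fell were Aldoc, Pfkfb4 and Slc16a1. CPM is the read count of a gene relative to the size of its library, with TMM scaling, and log2 fold changes are IRF2_KO over Parental.

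The libraries of the groups were separated for 24 of the 34 genes, with every IRF2_KO value above every Parental value for 22 and below for 2. Over all genes tested, 54.0% were separated in this way, 26.4% above and 27.6% below.

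Macrophage markers, present in both groups of these myeloid cells, moved in the same libraries. Of 17 macrophage marker genes, 11 were tested, of which 9 rose (81.8%) and 1 fell (9.09%), against 23.6% and 23.6% over all genes tested. The summed level of these markers was 627 to 636 CPM in Parental and 1704 to 1708 CPM in IRF2_KO. The macrophage markers C1qa, C1qb, C1qc, Marco and Timd4 had at most 1 read in any library. In bulk RNA, more cells of a type and more RNA per cell cannot be told apart, and the part of these markers in the glycolysis and hypoxia results was not tested.

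**Figure D1:**
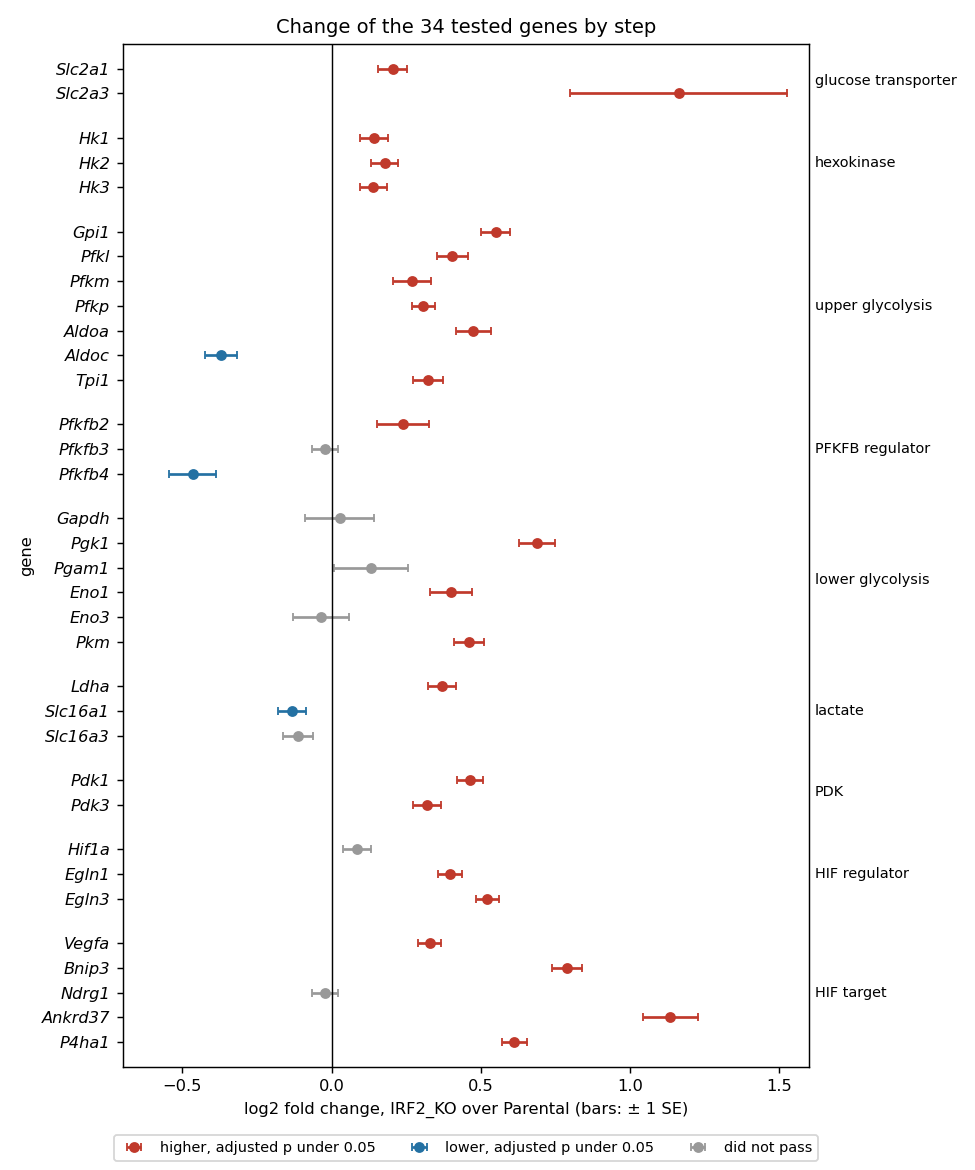
The log2 fold change of IRF2_KO over Parental (x axis, bars ± 1 SE) of each of the 34 tested genes (y axis, grouped by step), coloured by the edgeR call. Points lie right of 0 for 24 called genes, Aldoc, Pfkfb4 and Slc16a1 are called left of 0, and 7 grey points did not pass.

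The sequences before the start sites are shown because many of these genes are textbook HIF targets and the core that HIF binds can be looked for there. The RefSeq promoter table (GRCm38.p6) held 36 of the 38 genes, with 53 start sites. Shown are the 250 bases before a start site, 5′ to 3′ on the gene's strand, for Ankrd37 and the 5 genes with the largest rises named above, Bnip3, Pgk1, P4ha1, Gpi1 and Egln3, and for Pfkfb4, which fell. Capitals mark the letters ACGTG or GCGTG on either strand, and the Gpi1 window holds neither. A start site of the table can lie inside the span of its gene.
Bnip3 (chr7:138909507-138909756, - strand): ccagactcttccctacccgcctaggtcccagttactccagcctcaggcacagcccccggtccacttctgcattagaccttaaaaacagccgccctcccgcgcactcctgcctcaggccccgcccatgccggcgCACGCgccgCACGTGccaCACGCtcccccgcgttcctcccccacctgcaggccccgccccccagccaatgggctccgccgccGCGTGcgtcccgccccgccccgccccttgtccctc
Ankrd37 (chr8:45999851-46000100, - strand): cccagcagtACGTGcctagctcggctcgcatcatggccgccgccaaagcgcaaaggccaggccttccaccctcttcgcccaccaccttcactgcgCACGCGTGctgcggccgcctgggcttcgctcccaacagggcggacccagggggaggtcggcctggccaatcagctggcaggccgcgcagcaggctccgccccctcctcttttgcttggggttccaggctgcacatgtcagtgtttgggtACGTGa
P4ha1 (chr10:59323046-59323295, + strand): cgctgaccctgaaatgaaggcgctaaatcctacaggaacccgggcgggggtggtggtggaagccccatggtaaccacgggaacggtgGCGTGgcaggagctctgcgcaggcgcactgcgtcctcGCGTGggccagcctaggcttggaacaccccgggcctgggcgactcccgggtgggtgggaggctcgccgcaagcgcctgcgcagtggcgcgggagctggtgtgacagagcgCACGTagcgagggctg
Pgk1 (chrX:106186850-106187099, + strand): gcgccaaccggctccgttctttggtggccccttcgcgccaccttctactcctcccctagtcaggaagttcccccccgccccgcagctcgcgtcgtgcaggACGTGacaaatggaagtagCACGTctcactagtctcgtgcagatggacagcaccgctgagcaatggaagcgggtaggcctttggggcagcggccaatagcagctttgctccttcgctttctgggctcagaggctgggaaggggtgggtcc
Gpi1 (chr7:34230337-34230586, - strand): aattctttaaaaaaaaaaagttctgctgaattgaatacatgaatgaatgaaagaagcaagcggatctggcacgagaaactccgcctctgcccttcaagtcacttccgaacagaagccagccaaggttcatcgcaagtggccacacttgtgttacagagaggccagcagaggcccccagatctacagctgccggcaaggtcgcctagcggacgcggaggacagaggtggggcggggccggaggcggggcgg
Egln3 (chr12:54203875-54204124, - strand): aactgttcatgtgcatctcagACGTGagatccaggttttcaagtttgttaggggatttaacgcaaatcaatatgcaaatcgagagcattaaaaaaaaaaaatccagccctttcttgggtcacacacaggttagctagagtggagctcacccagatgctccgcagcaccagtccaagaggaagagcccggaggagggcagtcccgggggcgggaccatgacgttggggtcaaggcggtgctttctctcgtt
Pfkfb4 (chr9:108991652-108991901, + strand): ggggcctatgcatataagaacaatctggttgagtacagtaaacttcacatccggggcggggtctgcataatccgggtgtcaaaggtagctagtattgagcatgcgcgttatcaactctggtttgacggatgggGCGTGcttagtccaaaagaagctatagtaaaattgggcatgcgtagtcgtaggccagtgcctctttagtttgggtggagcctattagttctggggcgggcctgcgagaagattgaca

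ACGTG was present in 49.1% of the 53 windows of these genes, in 21.7% of the 12593 windows of all tested genes and in 16.6% of all 32851 windows. GCGTG was present in 54.7%, 43.8% and 28.2%. Known HIF targets were part of the choice of genes, so these are not shares of an independent set. Windows of 1 gene can also overlap and count the same match more than once, as in Aldoa. ACGTG overlaps the E-box CACGTG, which MYC and related factors bind, and the Bnip3 window holds 1 such E-box. The median GC content was 60.4% in the windows of these genes and 59.2% in those of tested genes. Within the group, ACGTG was found in 19 of 37 windows of genes that rose, in 1 of 4 of genes that fell and in 5 of 7 of genes that did not pass. GCGTG was found in 19 of 37, 4 of 4 and 4 of 7 of these windows, and either core in 29 of 37, 4 of 4 and 7 of 7. Either core was present in 81.1% of all windows of these genes and in 55.1% of those of tested genes. In Pgk1 the matches begin at positions -150 and -131 from the start site, and in Egln3 the single match begins at -229. The repeat that interferon regulatory factors bind, GAAA followed after any 2 bases by GAAA, was searched on both strands and was present in 1 of the 53 windows, 1 of those of Vegfa, and in 2.68% of the windows of tested genes. A match describes these letters only and is not a measured site.

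Among the glucose transporters, Slc2a1, which encodes GLUT1, the basal importer of many blood cells, stood at 293, 311 and 322 CPM in Parental against 334, 372 and 361 CPM in IRF2_KO. All 3 IRF2_KO values lay above the Parental values, a rise of 1.15-fold (log2 fold change 0.20, SE 0.05, edgeR adjusted p = 0.00182). Slc2a3, the high-affinity transporter GLUT3, was at the limit of detection, with 8, 6 and 15 reads in Parental and 17, 16 and 20 reads in IRF2_KO. It rose by 1.16 on the log2 scale (SE 0.36, edgeR adjusted p = 0.0138), but the call was lost without Parental 1 and without Parental 2, and the value ranged from 0.99 to 1.57 over the alternatives. Per length, Slc2a3 made up 0.0469% ± 0.0180 in Parental and 0.0940% ± 0.00617 in IRF2_KO of the summed RPKM of both transporters. Other family members on the lists had lower levels than Slc2a1 at 112 ± 5.04 RPKM in Parental, the highest being Slc2a8 at 7.58 ± 0.560 RPKM and Slc2a9 at 6.08 ± 0.206 RPKM. RPKM is the deposited level per kilobase of gene model.

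The hexokinases, which phosphorylate glucose, changed by little. Hk3, an isozyme typical of myeloid cells, stood at 1008, 1096 and 1101 CPM in Parental against 1131, 1218 and 1182 CPM in IRF2_KO. Hk2, the inducible isozyme bound to mitochondria, stood at 189.9, 207 and 202 CPM in Parental against 225, 218 and 235 CPM in IRF2_KO. Both had separated groups, with rises of 1.10-fold (edgeR adjusted p = 0.0162) and 1.13-fold (edgeR adjusted p = 0.00368). Hk1, the housekeeping isozyme, rose 1.10-fold (edgeR adjusted p = 0.0167), with values of 270.3, 291 and 275 CPM in Parental and 289.8, 316 and 316 CPM in IRF2_KO that overlapped. The calls of Hk1 and Hk3 were lost without Parental 1 and without IRF2_KO 3, that of Hk1 also without Parental 3, and none of the 3 hexokinases passed a test against a change of 1.2-fold. Among the other called genes, Slc2a1, Pfkm, Pfkp, Tpi1, Pfkfb2, Eno1, Slc16a1, Pdk3 and Vegfa did not pass that test either. Per length Hk3 was the most abundant isozyme, at 75.9% ± 0.537 in Parental and 75.7% ± 0.546 in IRF2_KO of the summed hexokinase RPKM, Hk1 took 14.4% ± 0.453 in Parental and 14.4% ± 0.266 in IRF2_KO, and the ranges of all 3 shares overlapped between the groups.

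In the upper part of glycolysis 6 of 7 genes rose and 1 fell, and all 7 had separated groups. The shares over all genes tested were 23.6% higher, 23.6% lower and 54.0% separated. Gpi1, which converts glucose 6-phosphate to fructose 6-phosphate (Entrez ID 14751, on chromosome 7 from 34201327 to 34230336 on GRCm38), stood at 497, 538 and 551 CPM in Parental against 729, 809 and 783 CPM in IRF2_KO. This is a rise of 1.46-fold (log2 fold change 0.55, SE 0.05, edgeR adjusted p = 4.63e-08). Aldoa, the main aldolase, which splits the hexose into trioses, stood at 2144, 2391 and 2412 CPM in Parental against 2899.6, 3487 and 3269.9 CPM in IRF2_KO, and Tpi1, which interconverts these trioses, at 953, 1012 and 1046 CPM in Parental against 1162, 1312 and 1291 CPM in IRF2_KO. Aldoa rose 1.39-fold (edgeR adjusted p = 3.66e-06) and Tpi1 1.25-fold (edgeR adjusted p = 3.61e-05).

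All 3 phosphofructokinase genes rose, against 23.6% of all genes tested. The liver-type subunit gene Pfkl stood at 589, 652 and 652 CPM in Parental against 775, 886 and 846 CPM in IRF2_KO, and rose 1.32-fold (log2 fold change 0.41, SE 0.05, edgeR adjusted p = 4.85e-06). The platelet-type Pfkp stood at 457, 473 and 464 CPM in Parental against 561, 588 and 576 CPM in IRF2_KO. The muscle-type Pfkm was the scarcest, at 41.5, 45.2 and 48.3 CPM in Parental against 50.5, 58.3 and 54.1 CPM in IRF2_KO. Pfkp and Pfkm rose 1.24-fold and 1.21-fold (edgeR adjusted p = 4.66e-06 and 0.00184). Per length Pfkl made up 75.5% ± 0.582 in Parental and 76.8% ± 0.595 in IRF2_KO of the summed RPKM, and the share of Pfkm was lower in every IRF2_KO library (6.04% ± 0.226 in Parental and 5.60% ± 0.0913 in IRF2_KO). The differences in share were not tested, and an exact permutation test of 3 libraries against 3 cannot go below a p of 0.1.

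Aldoc, the brain-type aldolase, went the other way from Aldoa. Its values were 40.8, 43.0 and 43.1 CPM in Parental and 31.3, 33.8 and 33.1 CPM in IRF2_KO, a fall of 1.29-fold (log2 fold change -0.37, SE 0.05, edgeR adjusted p = 2.23e-05). Per length, Aldoc was a small part of the aldolase RPKM, 1.88% ± 0.0643 in Parental and 1.05% ± 0.0567 in IRF2_KO.

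**Figure D2:**
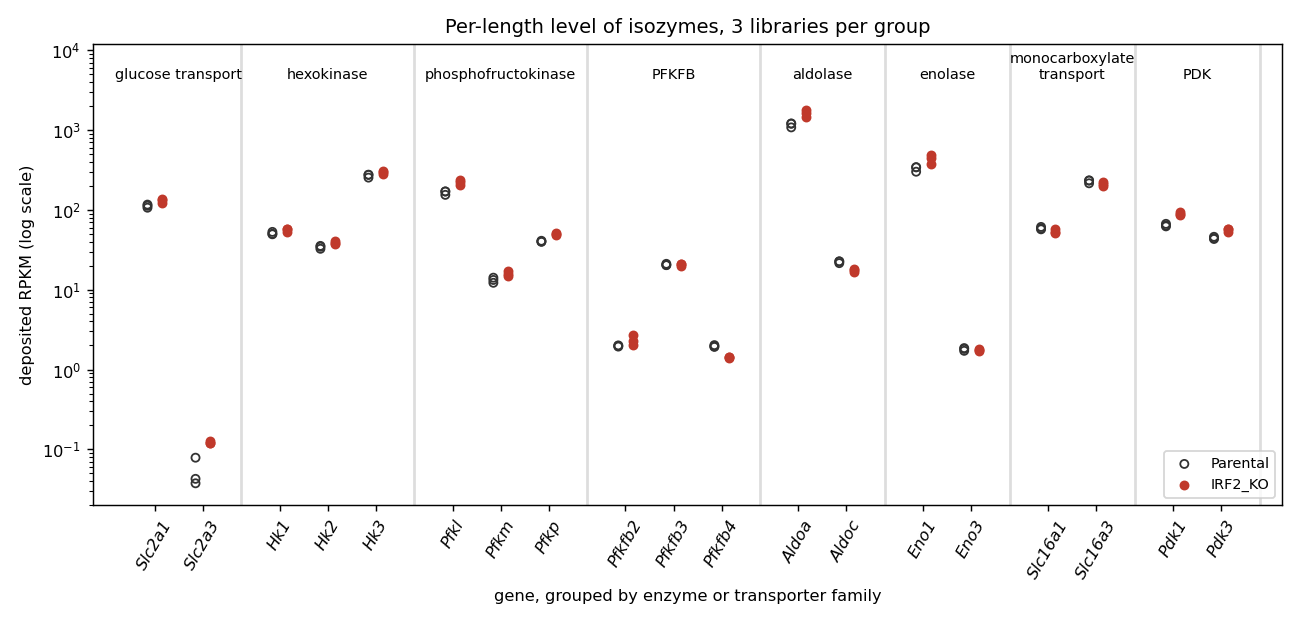
Deposited RPKM (y axis, log scale) of isozymes grouped by family (x axis), with 3 Parental libraries as open circles and 3 IRF2_KO libraries as filled circles. The isozyme with the highest level is the same gene in both groups for every family drawn, such as Hk3, Pfkl, Aldoa, Pfkfb3 and Pdk1.

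The PFKFB enzymes make and remove fructose 2,6-bisphosphate, the activator of phosphofructokinase, and they did not move together. Pfkfb4, a HIF-inducible isozyme in many cells, stood at 11.7, 12.1 and 11.5 CPM in Parental against 8.63, 8.30 and 8.65 CPM in IRF2_KO. It fell 1.38-fold with separated groups (log2 fold change -0.47, SE 0.08, edgeR adjusted p = 9.65e-05), and this fall held under every alternative, from -0.50 to -0.45. Pfkfb3, the isozyme with the highest kinase activity relative to phosphatase, had values of 133, 138 and 133 CPM in Parental and 136, 134 and 128 CPM in IRF2_KO and did not pass (log2 fold change -0.02, edgeR adjusted p = 0.722). Pfkfb2 was called higher at 1.18-fold (edgeR adjusted p = 0.0318), but its values of 19.1, 19.9 and 19.6 CPM in Parental and 27.1, 19.8 and 22.2 CPM in IRF2_KO overlapped and IRF2_KO 1 stood above the rest. Without that library its log2 fold change was 0.12 and did not pass, and leaving out any 1 Parental library also ended the call. Per length Pfkfb3 held 84.0% ± 0.0655 in Parental and 84.4% ± 1.28 in IRF2_KO of the PFKFB RPKM.

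In the lower part of glycolysis 3 of 6 tested genes rose, with separated groups, and none fell. The shares over all genes tested were 23.6% higher, 23.6% lower and 26.4% separated above. Pgk1, which makes the first ATP of the pathway (Entrez ID 18655, on chromosome X from 106187100 to 106203699), had the largest change of the glycolytic enzymes. It stood at 99.5, 82.6 and 92.4 CPM in Parental against 149, 154 and 139 CPM in IRF2_KO, a rise of 1.61-fold (log2 fold change 0.69, SE 0.06, edgeR adjusted p = 3.92e-08). Pkm, pyruvate kinase, stood at 1169, 1284 and 1269.9 CPM in Parental against 1574, 1799 and 1751 CPM in IRF2_KO, and Eno1, the main enolase, at 645, 737 and 735 CPM in Parental against 817, 1022 and 953 CPM in IRF2_KO. They rose 1.38-fold (edgeR adjusted p = 9.17e-07) and 1.32-fold (edgeR adjusted p = 0.000256).

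The 3 that did not pass were Gapdh, Pgam1 and Eno3. Gapdh, the dehydrogenase between Tpi1 and Pgk1, was counted at only 4.57, 4.07 and 4.48 CPM in Parental and 4.13, 4.32 and 4.90 CPM in IRF2_KO, and Pgam1, the mutase between Pgk1 and Eno1, at 3.31, 3.21 and 3.66 CPM in Parental and 3.49, 3.66 and 3.98 CPM in IRF2_KO. Per length Gapdh had 3.25 ± 0.203 RPKM in Parental, against 609 ± 27.4 RPKM for Tpi1, its neighbour in the pathway. Only uniquely aligned reads were counted, and 82.5% of the 50-base stretches of the longest coding Gapdh transcript recur in transcripts of other genes, among them the pseudogenes Gapdh-ps14 and Gapdh-ps15, as do 41.5% for Pgam1. Exact recurrence was also high for Eno1 (72.2%), Pgk1 (68.0%), Bnip3 (62.4%) and Pkm (34.4%). It was lower for others, such as Gpi1 (25.3%), Pfkfb2 (25.1%), Pfkp (17.1%), Ldha (16.6%) and Aldoa (13.5%). The levels of all these genes are therefore uncertain. Among the 19 tested genes with under 5% recurrence, 13 rose and 3 fell, and among the 15 others 11 rose and none fell. The shares over all genes tested were 23.6% higher and 23.6% lower, and the part of uncounted reads in these calls was not tested. Eno3, the muscle enolase, had values of 6.39, 6.77 and 6.94 CPM in Parental and 6.48, 6.76 and 6.36 CPM in IRF2_KO that overlapped. Eno2, the neuronal enolase, had 3 reads in Parental 1, 1 in IRF2_KO 1, 4 in IRF2_KO 3 and none elsewhere, and was not tested.

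At the lactate end, the enzyme rose, 1 exporter was called lower and the other did not pass. Ldha, which converts pyruvate to lactate, stood at 1390.0, 1441 and 1495 CPM in Parental against 1756, 1961 and 1876 CPM in IRF2_KO. It rose 1.29-fold (log2 fold change 0.37, SE 0.05, edgeR adjusted p = 3.41e-06). Ldhb, the subunit that favours the reverse reaction, had 0 reads in all 6 libraries, below a limit of 3 reads that corresponds to 0.0746 to 0.105 CPM per library and covers counting error only. Of the 50-base stretches of Ldhb, 27% recur in Gm5514, and the sources used here do not name the gene models counted.

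Slc16a1, the monocarboxylate transporter MCT1, stood at 278, 261 and 267 CPM in Parental against 262, 239 and 235 CPM in IRF2_KO. It was called lower at 1.10-fold (edgeR adjusted p = 0.0285), though IRF2_KO 1 lay within the Parental range and the call was lost without Parental 1, Parental 3, IRF2_KO 2 or IRF2_KO 3. Slc16a3, the exporter MCT4 and a HIF target in other cells, had values of 570.1, 618 and 622 CPM in Parental and 522, 594 and 558 CPM in IRF2_KO and did not pass (log2 fold change -0.11, edgeR adjusted p = 0.0703). It passed as lower with library size alone, with no filter, without Parental 1 and without IRF2_KO 2. Bsg, which encodes basigin, the chaperone both transporters need at the membrane, rose from 1004 ± 15.1 to 1403 ± 48.4 CPM (edgeR adjusted p = 2.35e-08).

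Both PDK genes that could be tested rose, with separated groups, against 23.6% higher and 26.4% separated above over all genes tested. Pdk1, the isozyme best known as a HIF target, stood at 414, 386 and 397 CPM in Parental against 576, 538 and 539 CPM in IRF2_KO, and rose 1.38-fold (log2 fold change 0.46, SE 0.04, edgeR adjusted p = 9.01e-08). Pdk3, on chromosome X, stood at 94.4, 89.0 and 91.3 CPM in Parental against 118, 116 and 109 CPM in IRF2_KO, and rose 1.25-fold (edgeR adjusted p = 2.11e-05). The share of Pdk1 in the summed PDK RPKM was 59.1% ± 0.122 in Parental and 61.5% ± 0.832 in IRF2_KO, higher in every IRF2_KO library. Pdk2 and Pdk4, isozymes typical of oxidative tissues, had 0 reads in all 6 libraries, and none or 1.43% of their 50-base stretches recur in other genes. As with Ldhb, the gene models counted are not named, so these zeros do not show that the transcripts are absent.

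Of the HIF regulators, the oxygen sensors rose and the factor itself did not pass. Hif1a stood at 496, 465 and 449 CPM in Parental against 519, 475 and 500.3 CPM in IRF2_KO, which overlapped (log2 fold change 0.08, edgeR adjusted p = 0.146). It passed as higher without Parental 1 and without IRF2_KO 2. HIF1A is controlled mainly through protein stability, which transcript counts do not measure. Egln1, which encodes the main HIF prolyl hydroxylase PHD2, stood at 254, 246 and 254 CPM in Parental against 321, 338 and 335 CPM in IRF2_KO, and Egln3, which encodes PHD3 and is itself a HIF target, at 823, 803 and 822 CPM in Parental against 1174, 1183 and 1158 CPM in IRF2_KO. The rises were 1.32-fold for Egln1 (edgeR adjusted p = 2.89e-07) and 1.44-fold for Egln3 (log2 fold change 0.52, SE 0.04, edgeR adjusted p = 3.64e-09). Per length Egln3 was the more abundant of the pair, at 296 ± 4.41 RPKM in Parental and 428 ± 5.84 RPKM in IRF2_KO, while Egln1 had 68.1 ± 1.35 RPKM in Parental and 90.2 ± 2.80 RPKM in IRF2_KO.

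Of the 5 HIF target genes, 4 rose, all with separated groups, against 23.6% higher and 26.4% separated above over all genes tested. Bnip3, a mitochondrial outer membrane protein that marks mitochondria for removal (Entrez ID 12176, on chromosome 7 from 138890836 to 138909506), stood at 51.4, 51.0 and 46.2 CPM in Parental against 83.5, 87.7 and 85.4 CPM in IRF2_KO. It rose 1.73-fold (log2 fold change 0.79, SE 0.05, edgeR adjusted p = 7.61e-10). P4ha1, a collagen prolyl 4-hydroxylase subunit (Entrez ID 18451, on chromosome 10 from 59323197 to 59373304), stood at 131, 124 and 128 CPM in Parental against 197, 191 and 198 CPM in IRF2_KO, a rise of 1.53-fold (log2 fold change 0.61, SE 0.04, edgeR adjusted p = 1.62e-09). Vegfa, the angiogenic growth factor, stood at 249.7, 256 and 252 CPM in Parental against 325, 310.1 and 316 CPM in IRF2_KO, and rose 1.26-fold (edgeR adjusted p = 2.52e-06).

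Ankrd37, a small ankyrin repeat protein, had the largest fold of the HIF targets from a low level. Its values were 6.16, 5.97 and 6.09 CPM in Parental and 12.3, 12.8 and 14.9 CPM in IRF2_KO, a rise of 2.20-fold (log2 fold change 1.14, SE 0.09, edgeR adjusted p = 1.45e-08). Ankrd37 overlaps Ufsp2 in the annotation and whether strand was used in counting is not given in the sources used here. Ufsp2 had a mean of 123.1 CPM in Parental and 142 CPM in IRF2_KO (log2 fold change 0.21), and its part in the Ankrd37 value was not tested. Other genes overlap a tested neighbour too: Slc16a3 (Csnk1d), Hif1a (Gm15283), Hk1 (Hk1os), Eno3 (Pfn1), Pfkp (Pitrm1), Pfkm (Senp1), Tpi1 (Spsb2), Hk3 (Unc5a) and Pfkfb2 (Yod1). In Parental Pfn1 had a mean of 894 CPM against 6.70 CPM for Eno3. The part of these neighbours was not tested either. Ndrg1, a widely used hypoxia marker, did not pass, with values of 97.8, 102 and 103 CPM in Parental and 100.3, 101 and 97.5 CPM in IRF2_KO that overlapped (log2 fold change -0.02, edgeR adjusted p = 0.705).

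**Figure D3:**
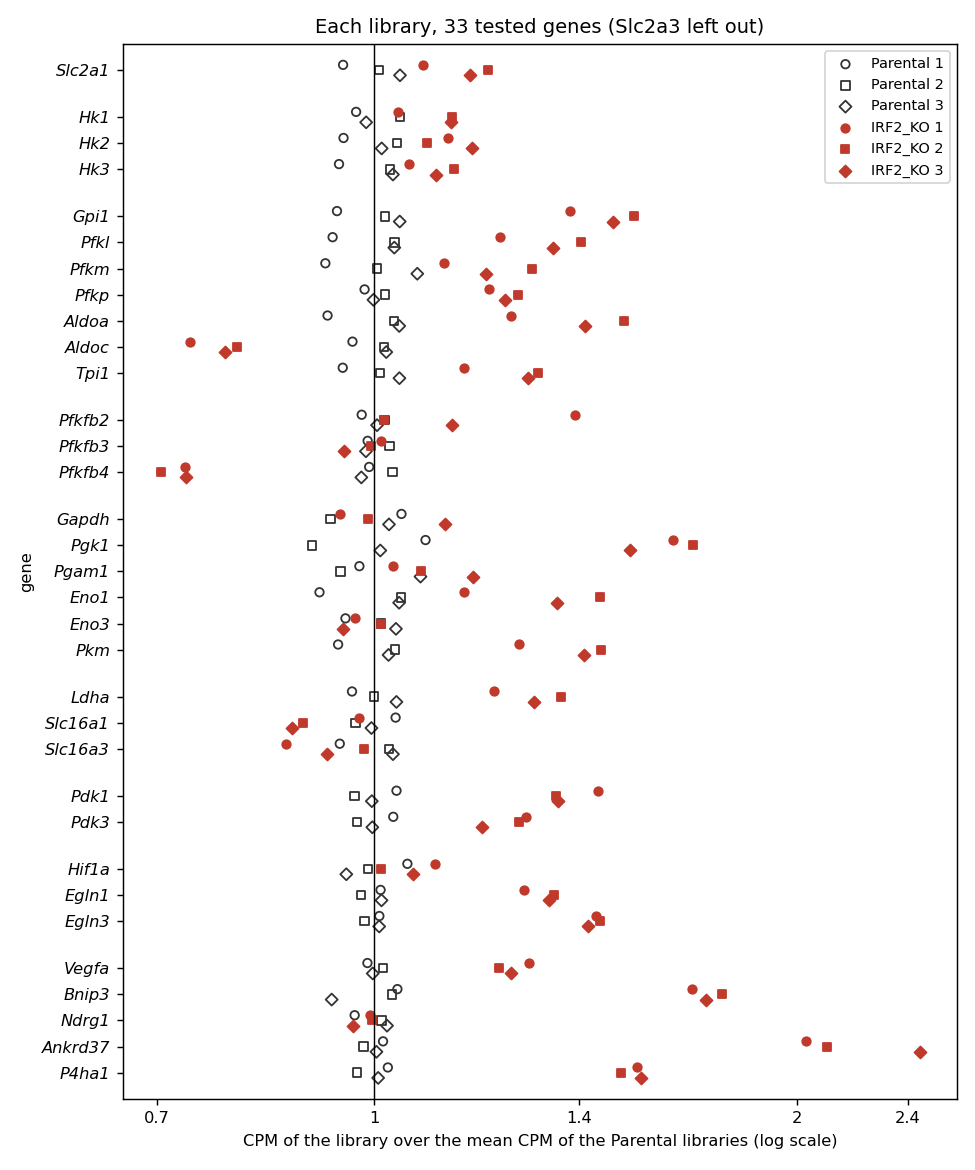
CPM of each library divided by the mean CPM of the 3 Parental libraries (x axis, log scale) for 33 tested genes (y axis, grouped by step), with open symbols for Parental and filled symbols for IRF2_KO. In the glycolytic enzymes Parental 1 and IRF2_KO 1 (circles) often lie left of the other libraries of their group, while in the PDK, HIF regulator and HIF target genes Parental 1 is most often the highest of its group, for 7 of 10.

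Libraries of a group shared an order over most enzymes. For the PDK and HIF genes the Parental libraries had another order, and the IRF2_KO libraries had no clear one. Over the 16 tested glycolytic enzymes and Ldha, Parental 1 was the lowest Parental library for 14 of 17 genes, IRF2_KO 1 was the lowest IRF2_KO library for 14 of 17, and IRF2_KO 2 the highest for 14 of 17. Over the 10 tested PDK, HIF regulator and HIF target genes, Parental 1 was the highest Parental library for 7 and Parental 2 the lowest for 6, while each IRF2_KO library was lowest for 3 or 4. The median coefficient of variation within a group was 5.05% and 5.53% for the enzymes and Ldha, and 2.70% and 2.56% for the PDK and HIF genes, in Parental and IRF2_KO. The summed per-length level of the upper glycolysis genes was 2057, 2243 and 2278 RPKM in the Parental libraries and 2694, 3175 and 3013 RPKM in the IRF2_KO libraries. The 5 HIF targets summed to 154, 154 and 152 RPKM in the Parental libraries and 209, 209 and 210.0 RPKM in the IRF2_KO libraries. Despite the spread among the enzymes, neither sum overlapped between the groups.

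The other genes of these pathways were taken from lists by function, also drawn up with earlier results of these data known. Together they hold 152 genes, of which 130 were tested, 45 rose (34.6%) and 20 fell (15.4%). Among other HIF targets 19 of 27 tested genes rose (70.4%) and 2 fell (7.41%), against 23.6% and 23.6% over all genes tested. Flt1, a VEGF receptor, rose from 85.9 ± 3.90 to 215 ± 17.2 CPM (edgeR adjusted p = 1.95e-12), and Selenbp1, a selenium-binding protein, from 179 ± 8.92 to 369 ± 21.9 CPM (edgeR adjusted p = 1.12e-11). Fam162a, a mitochondrial protein, rose from 229.9 ± 3.88 to 361 ± 11.3 CPM and Ddit4, a brake on mTORC1, from 40.5 ± 1.73 to 69.5 ± 5.50 CPM (edgeR adjusted p = 4.48e-10 and 5.60e-09). The 2 that fell were Tfrc, the transferrin receptor (-0.58 on the log2 scale), and P4ha2, from the same enzyme family as P4ha1 (-2.36), both named after their values were seen.

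Of the other HIF subunits and oxygen sensing genes 3 of 15 tested rose (20%) and 2 fell (13.3%). Over all genes tested 23.6% rose and 23.6% fell, so the share that rose was near that over all genes. Those that rose were the alternative alpha subunit genes Epas1, from 1.65 ± 0.118 to 6.23 ± 0.319 CPM, and Hif3a, from 72.2 ± 2.29 to 119.9 ± 7.35 CPM, and the shared beta subunit gene Arnt, from 75.6 ± 1.67 to 102 ± 3.00 CPM (edgeR adjusted p = 8.90e-10, 1.92e-09 and 3.60e-07). Those that fell were Crebbp, a coactivator (-0.22 on the log2 scale), and Egln2, the prolyl hydroxylase not counted among the genes above (-0.20). Vhl, which recognises hydroxylated HIF1A, did not pass (log2 fold change 0.08, edgeR adjusted p = 0.246).

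Of 13 tested glycogen genes, 10 rose (76.9%) and 1 fell (7.69%), against 23.6% and 23.6% over all genes tested. Pygl, the phosphorylase that releases glucose from glycogen, rose from 469 ± 5.04 to 673 ± 3.65 CPM, and Pgm1, which links glycogen to glycolysis, from 291 ± 2.75 to 399 ± 8.89 CPM (edgeR adjusted p = 3.27e-09 and 3.13e-08). Gys1, glycogen synthase, rose from 384 ± 17.1 to 537 ± 20.8 CPM (edgeR adjusted p = 7.83e-08). Genes of synthesis and of breakdown were thus both among those that rose.

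Of 6 tested genes of gluconeogenesis or braking of glucose use, 3 rose (50%) and 1 fell (16.7%), against 23.6% and 23.6% over all genes tested. Txnip, which limits glucose uptake, rose from 316 ± 0.770 to 604 ± 7.30 CPM (edgeR adjusted p = 1.11e-12), its relative Arrdc4 by 0.66 on the log2 scale and Pcx, pyruvate carboxylase, by 0.71. Pck2, mitochondrial PEP carboxykinase, fell (-0.19 on the log2 scale, edgeR adjusted p = 0.00658). Of the other transporters 3 of 6 rose and none fell, among them Slc2a9 and Slc2a8 (0.28 and 0.29).

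The lists of pathways that branch from or follow glycolysis were as follows, beside 23.6% higher and 23.6% lower over all genes tested. On the citric acid cycle list 1 of 18 tested genes rose, 2 fell, Suclg1 (-0.21) and Idh3a (-0.15), and 15 did not pass. The 1 that rose, Mdh1 (0.11 on the log2 scale), encodes the cytosolic malate dehydrogenase and not the mitochondrial enzyme of the cycle. Of the pyruvate entry and dehydrogenase complex genes 2 of 10 rose (20%), Mpc2 (0.33) and Pdp1 (0.19), and none fell. The pentose phosphate pathway had 2 of 8 higher (25%), G6pdx (0.23) and Rpe (0.18), and 1 lower, Rpia (-0.17). The higher shares of the pyruvate entry and pentose phosphate lists were near that over all genes. The serine synthesis list had 2 of 5 lower, Shmt1 (-0.23) and Shmt2 (-0.17), which interconvert serine and glycine, and none higher. Its genes for making serine from a glycolytic intermediate, Phgdh, Psat1 and Psph, did not pass. The list named other isozymes of glycolysis had 1 of 8 higher, Gapdhs (0.32), and 3 lower, Adpgk (-0.24), Ldhd (-2.53) and Galm (-0.42). Ldhd, a D-lactate dehydrogenase, and Galm, a sugar mutarotase, are not isozymes of glycolytic enzymes. Ldhd was also near the limit of detection, with 16, 32 and 25 reads in Parental and 5, 3 and 2 reads in IRF2_KO. A call in 1 list and not in another was not tested as a difference between lists.

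**Figure D4:**
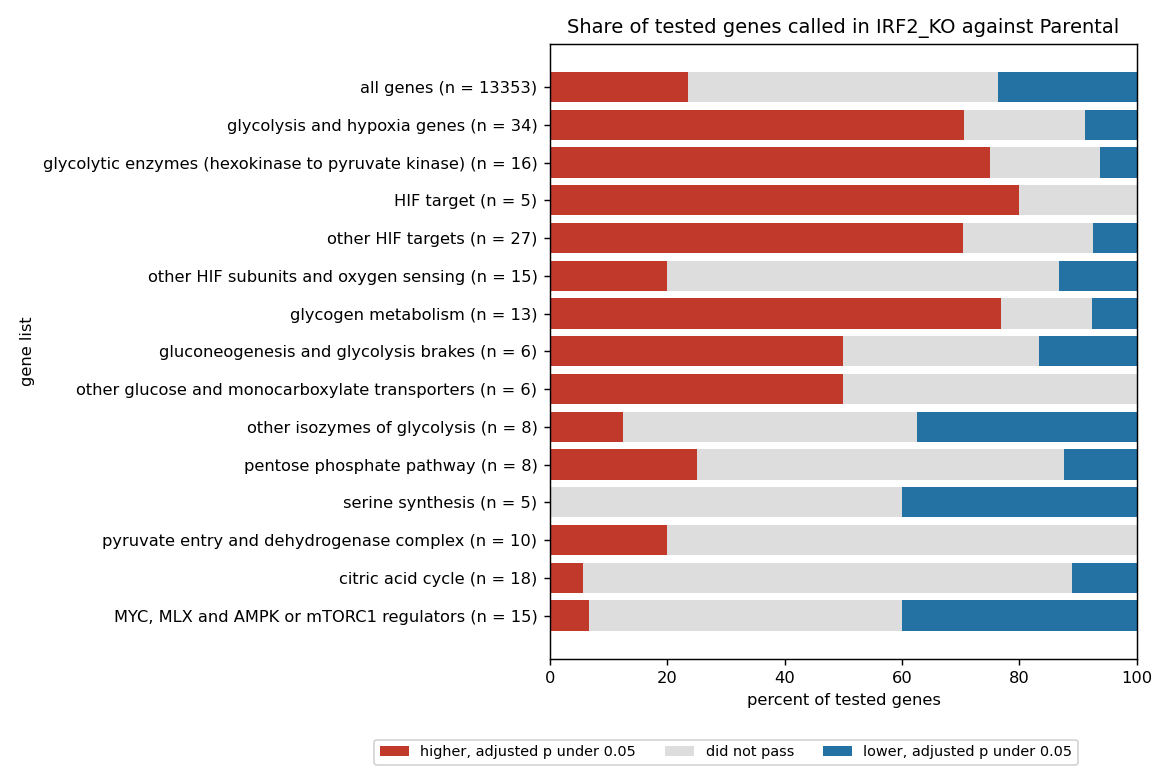
Percent of tested genes (x axis) called higher, not passing or called lower in IRF2_KO for each gene list (y axis, with the number tested). The glycolysis and hypoxia genes, the other HIF targets and the glycogen genes have 70.6%, 70.4% and 76.9% called higher, against 23.6% of all genes. The citric acid cycle list has 5.56%, which is the cytosolic Mdh1 alone.

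Among regulators of glucose metabolism outside the HIF pathway, 6 of 15 tested genes fell (40%) and 1 rose (6.67%). Over all genes tested 23.6% fell and 23.6% rose. Mycn, a MYC family factor, fell from 82.7 ± 1.49 to 4.42 ± 0.188 CPM (edgeR adjusted p = 1.33e-18), whereas Myc, its abundant relative, did not pass (log2 fold change 0.04, edgeR adjusted p = 0.526). Max, the partner of both, fell from 132 ± 2.57 to 98.3 ± 1.81 CPM, Akt1 from 521 ± 21.0 to 434 ± 21.9 CPM and Mlxipl, a glucose-sensing factor, from 0.962 ± 0.113 to 0.212 ± 0.102 CPM (edgeR adjusted p = 2.70e-07, 0.000129 and 5.84e-05).

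Facts of the whole libraries that stand beside these results are as follows. The total count was 29070160 to 39925038 per library. Irf2 itself did not pass (log2 fold change -0.08, edgeR adjusted p = 0.209), and a guide RNA can disrupt a gene without lowering its transcript, so its level does not check the labels. Hoxb8 had 127 ± 2.08 CPM in Parental, and the granule genes Elane, Mpo and Prtn3 of early granulocytes were abundant, while the progenitor genes Cd34, Hoxa9 and Meis1 had at most 2 reads per library. Progenitor markers fell in 5 of 7 tested (71.4%, against 23.6% over all genes tested), with sums of 1201 to 1213 and 926 to 936 CPM. Neutrophil markers rose in 7 of 16 (43.8%) and fell in 5 (31.2%), with sums of 11517 to 12515 and 9619 to 11105 CPM. The part of these markers in the results was not tested either. Erythroid, B and T cell, and fibroblast and endothelial markers summed to at most 2.23 CPM in any library.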

How the data were processed

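RNA was sequenced from 6 libraries, 3 Parental and 3 IRF2_KO, grouped by the group label of each sample. Replicates are numbered in record order and pair nothing. Per the labels' protocols the kit was one for stranded total RNA after column purification and DNase treatment. The molecule label instead gives polyadenylated RNA, and the 2 were not reconciled. The submitters' processing notes name GSNAP as a tool and GRCm38 as the build. Not given in the sources used here are versions, gene models and the strand setting. The deposited counts are reads aligned uniquely to each gene model, per the file headers, so reads with several matches are missing. A size-factor-adjusted RPKM is deposited too, per the file headers, and was used here only to compare levels between genes and for isozyme shares. It equals the count times a constant per gene and library.

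Counts were tested in R 4.3.3 with edgeR 4.0.16 (filterByExpr, TMM factors of 0.987 to 1.02, robust quasi-likelihood F-test, two-sided, Benjamini-Hochberg adjustment over 13353 genes, threshold 0.05). SE was computed as the absolute log2 fold change over the root of the F statistic. Symbols came from the RefSeq table of GRCm38.p6, which named 31049 of 36528 IDs. IDs without a symbol took 1.86% to 1.92% of the counts and stayed in the test. Libraries of a group differed by more than sampling noise (mean chi-square per gene of 2.78 to 10.1, against 63.7 to 73.4 between groups), and none was treated as a repeat. Recurrence of 50-base stretches was searched, both strands, in GENCODE M21 transcripts. Motifs were searched in the 250 bases before RefSeq start sites. The test was checked on 1 set of simulated counts, in which false calls made up a somewhat larger share of the calls than the threshold allows, so calls near the threshold are less sure than their adjusted p. Alternatives used limma 3.58.1 and DESeq2 1.42.0, other scalings and filters, a test against 1.2-fold, and each library left out. All 38 genes are accounted for. From each other list up to 4 genes with the smallest adjusted p are named, and further genes were named with their values in view. The 38 genes and all lists were chosen with earlier results of these data known, so they are not independent of them.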

Additional observations from a re-analysis of the deposited data

How the results depend on the processing

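Of 536 values of single genes under the alternatives, 493 kept their direction and their side of the threshold. In every alternative that gave them a value, 17 of the 34 tested genes did so. These 17 include Eno3, Ndrg1 and Pgam1, which were never called, so not all of them are changes that held. Against a change of 1.2-fold (glmTreat) 13 of the genes were higher and 2 lower, 2340 of all genes were called, 1471 higher and 869 lower, and 31 other pathway genes were called. This test asks for more than a difference from 0. Leaving out each library in turn gave 21 to 25 of the genes higher and 2 or 3 lower, and 5256 to 6216 of all genes called. The log2 fold change of Gapdh turned negative with library size alone (-0.0029), without Parental 2 (-0.020) and without IRF2_KO 3 (-0.051), and that of Pfkfb3 turned positive without IRF2_KO 3 (0.0038). Over the libraries left out in turn Gapdh ranged from -0.051 to 0.087 and Pfkfb3 from -0.032 to 0.0038, and neither passed. Library size alone left 23 higher and 4 lower and moved the median log2 fold change of all genes from -0.01 to -0.04. Removing the 100 genes with most reads takes 7 of the 34 out of the test. No paired analysis was possible because the labels give no replicate numbers. Low counts limit Slc2a3 and Eno2. Alternatives for the other pathway genes were added after seeing the data.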
